A study of Mus musculus with 2 samples.

Results

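The scavenger and phagocytic receptor genes examined here are 10 named genes among the 52550 gene identifiers of 2 RNA-seq libraries. They were taken by symbol after the Ensembl identifiers had been matched to mouse gene symbols, and all 10 matched: the scavenger receptors Msr1, Marco, Scarb1, Cd36, Stab1 and Lrp1, the beta-glucan receptor gene Clec7a, and the receptor kinases Mertk, Axl and Tyro3, through which macrophages hold apoptotic cells. The libraries come from RAW264.7, a macrophage-like mouse line transformed by Abelson murine leukaemia virus, kept without treatment in 2D culture (1 library) or in 3D culture (1 library). Every library is of this 1 line, and the sources used here do not say how the 3D cultures were set up. The comparison asks how the receptor repertoire differs between the culture methods.

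Scavenger receptors take up modified lipoproteins, lipids, microbes and cell debris, and macrophages use them to clear material and to fill with lipid. Receptors of the TYRO3, AXL and MERTK family (the TAM kinases) do not touch a dying cell directly. They bind the soluble protein GAS6 and, for some of the family, protein S, and these coat exposed phosphatidylserine on the cell. Dectin-1, the product of Clec7a, binds fungal beta-glucan and signals through the kinase SYK.

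The libraries held 14371084 counts (2D) and 16652503 counts (3D). With 1 library per culture method no difference has a replicate check and no p-value is given. Ratios carry exact 95% intervals that cover counting error only, and, lacking molecular identifiers, reads cannot be taken as independent molecules. In bulk RNA, fewer cells that express a gene and less RNA of it per cell cannot be told apart. Levels are counts per 1000000 after TMM scaling, a scaling that centres the bulk of genes (CPM), and a gene was called measured at a mean of at least 1 CPM, which left 11673 genes. All 9 macrophage markers in the list checked were measured and 6 of them were higher in 3D, the exceptions being Itgam, Fcgr1 and Ptprc. Lists for fibroblasts, epithelial cells, T and B cells, dendritic cells and adipocytes held no measured gene. The 6 hepatocyte markers summed to 10 counts in 2D and 319 in 3D, with all 6 higher in 3D and 232 of the counts from Alb. The 6 endothelial markers summed to 392 and 754 counts, of which Vwf gave 357 and 714, while Emcn was at 0 in both and Cdh5 had 2 and 5.

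The level of these genes ranged from over 1000 CPM for Lrp1 to 0 counts for Marco. The stretches of 250 bases before the RefSeq start (build GRCm38.p6) of the most abundant gene, Lrp1, and of the 2 genes under the level filter, Marco and Clec7a, are shown to set the promoter at the top of the range beside those at the bottom. They lie at chr10:127621149-127621398, chr1:120505025-120505274 and chr6:129472780-129473029, all on the minus strand, and are written 5′ to 3′ along the gene. Capitals mark matches, on either strand, to GAGGAA, a core of sites bound by the myeloid factor PU.1, and to GGGCGG, the Sp1 box.
Lrp1: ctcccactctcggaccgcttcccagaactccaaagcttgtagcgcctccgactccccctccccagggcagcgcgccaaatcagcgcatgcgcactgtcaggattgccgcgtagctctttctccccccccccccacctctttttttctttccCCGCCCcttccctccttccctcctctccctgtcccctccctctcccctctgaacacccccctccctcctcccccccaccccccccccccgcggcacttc
Marco: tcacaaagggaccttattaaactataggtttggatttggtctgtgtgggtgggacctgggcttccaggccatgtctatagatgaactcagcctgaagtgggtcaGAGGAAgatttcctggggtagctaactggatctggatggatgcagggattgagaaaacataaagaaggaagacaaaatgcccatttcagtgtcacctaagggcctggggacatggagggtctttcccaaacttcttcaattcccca
Clec7a: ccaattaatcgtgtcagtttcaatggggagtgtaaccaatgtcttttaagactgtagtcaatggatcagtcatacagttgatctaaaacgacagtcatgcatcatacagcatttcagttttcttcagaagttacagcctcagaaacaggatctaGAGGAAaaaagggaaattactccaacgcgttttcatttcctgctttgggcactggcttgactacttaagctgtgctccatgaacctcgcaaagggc
The Lrp1 stretch held 13 CpG dinucleotides and a GC content of 67.2%, the Marco stretch 0 CpG and 47.6%, and the Clec7a stretch 5 CpG and 42.0%. The median over 32851 promoter stretches of this length was 6 CpG and 52.4%. GAGGAA was present in the Marco and Clec7a stretches and not in that of Lrp1, and 23.3% of all stretches held it. GGGCGG was present in the Lrp1 stretch alone of these 3, and 32.7% of all stretches held it. Receptor genes of far lower level than Lrp1 held it too, namely Axl, Cd36, Mertk and Tyro3. GAGGAA was also in the stretches of Axl and Stab1, which were measured. Of the 8 genes with such a stretch, Tyro3 had the most CpG dinucleotides (24). No stretch was available for Msr1 and Scarb1, so neither was examined for these matches. A match is a description of the letters and not evidence of binding.

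Of the 10 receptor genes, 8 were measured, and 1 of them, Scarb1, was at least 2-fold higher in 3D, where 18.7% of all measured genes were. None was at least 2-fold lower, against 20.8% of all measured genes. The median log2 ratio of the 8 genes was 0.17 and that of all measured genes 0.05. Of the 8 ratios, 4 were above 1 and 4 below, against 6045 above and 5628 below among all measured genes. The calls depended on the scaling. When libraries were scaled to total counts, every log2 ratio fell by 0.6, the call of Scarb1 ended, and Msr1 became the 1 gene at least 2-fold lower, where 36.5% of all measured genes were lower and 5.59% higher. The counts of higher and lower calls were 2181 and 2426 among the 11673 genes measured under TMM, and 657 and 4292 among the 11749 genes that reached 1 CPM under total counts.

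**Figure D1:**
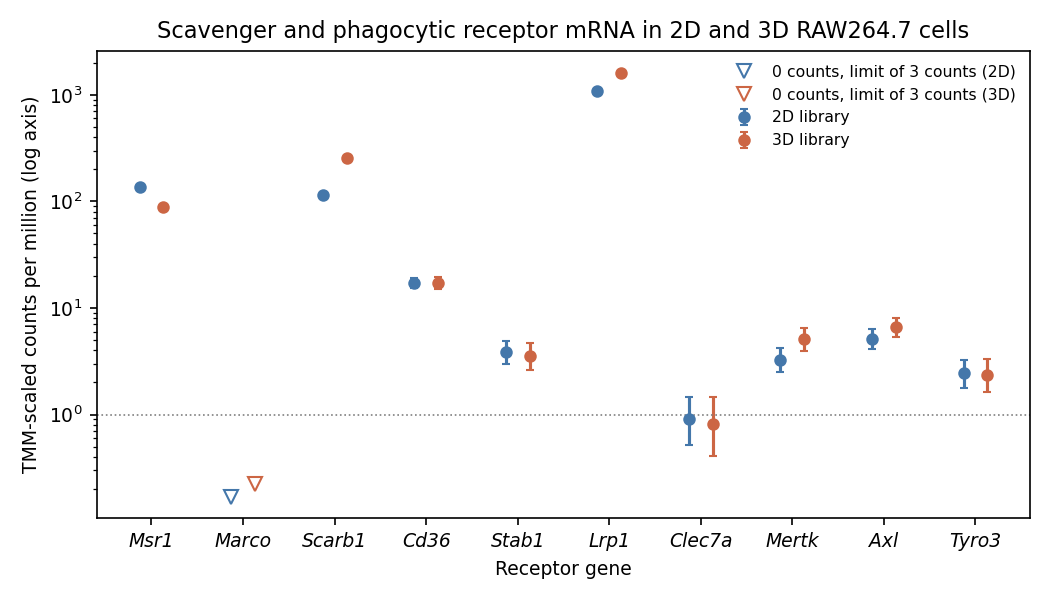
Level of each receptor gene as TMM-scaled CPM on a log axis, with 1 point per library and 95% Poisson intervals; open triangles mark the limit that 0 counts allow, and the dotted line is the level filter at 1. Lrp1 stands above 1000 in both libraries, Msr1 at 136 and 87.9, Scarb1 at 115 and 254, and Marco has no counts.

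Lrp1 (ENSMUSG00000040249, mm10 chromosome 10, 127538161 to 127621148) encodes a very large endocytic receptor for lipoprotein remnants, protease complexes and apoptotic cells. It had 19305 counts in 2D and 21893 in 3D, or 1092 and 1618 CPM. That is a ratio of 1.48 (95% interval 1.45 to 1.51) under TMM and of 0.98 under total counts, so its direction follows the scaling. Lrp1 alone held 79.4% of the counts of the 10 genes in 2D (95% Wilson interval 78.9% to 79.9%) and 81.1% in 3D (80.6% to 81.6%). Its transcript of 14888 bases with 89 exons is the longest of the set. Per 1000 bases of transcript it still ranked highest, at 73.3 CPM per kb in 2D and 109 in 3D. An antisense gene inside it, Gm16217, had 8 and 6 counts.

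Msr1 and Scarb1 changed places by CPM. Msr1 (ENSMUSG00000025044, chromosome 8, 39581685 to 39642673) encodes the class A scavenger receptor for modified low-density lipoprotein. It had 2402 counts in 2D and 1189 in 3D, or 136 and 87.9 CPM, a 1.55-fold lower level in 3D (1.44 to 1.66). Scarb1 (ENSMUSG00000037936, chromosome 5, 125277087 to 125341094) encodes SR-BI, a class B receptor that takes cholesteryl ester from high-density lipoprotein and binds apoptotic cells. It had 2029 and 3435 counts, or 115 and 254 CPM, a 2.21-fold higher level in 3D (2.09 to 2.34). Msr1 was thus the more abundant by counts in 2D and Scarb1 in 3D.

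The change of Msr1 relative to Scarb1 does not depend on how the libraries are scaled. There were 1.18 Msr1 counts per Scarb1 count in 2D and 0.346 in 3D, a 3.42-fold difference (exact 95% interval 3.13 to 3.74). Within the counts of all 10 genes, Msr1 held 9.88% in 2D (9.51% to 10.3%) and 4.40% in 3D (4.17% to 4.66%), and Scarb1 held 8.34% (8.0% to 8.7%) and 12.7% (12.3% to 13.1%). Relative to Lrp1, Msr1 was 2.29-fold lower in 3D (2.13 to 2.46) and Scarb1 1.49-fold higher (1.41 to 1.58). Liver cells also make Scarb1 and Lrp1 mRNA, and the hepatocyte markers were higher in 3D too. Their 6 genes summed to 10 counts in 2D and 319 in 3D, and their part in the ratios of Scarb1 and Lrp1 was not tested.

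The other class B receptor gene, Cd36 (ENSMUSG00000002944, chromosome 5, 17781690 to 17888801), whose product takes up oxidised lipoprotein and long-chain fatty acids, had 304 counts in 2D and 231 in 3D. Its levels of 17.2 and 17.1 CPM gave a ratio of 0.99 with an interval of 0.83 to 1.18 that holds 1. Relative to Msr1, Cd36 was 1.53-fold higher in 3D (1.27 to 1.85), and relative to Scarb1 it was lower, with 6.67 Scarb1 counts per Cd36 count in 2D and 14.9 in 3D, a 2.23-fold difference (1.85 to 2.68). Stab1 (ENSMUSG00000042286, chromosome 14, 31139013 to 31168641), which encodes stabilin-1, a multidomain clearance receptor of macrophages and sinusoidal endothelium, had 68 and 48 counts, or 3.84 and 3.55 CPM (ratio 0.92, 0.62 to 1.35). The last 112 bases of Stab1 overlap Nt5dc2 on the opposite strand, which had 292 and 439 counts, so Stab1 reads in that stretch are uncertain if the counting ignored strand.

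Marco (ENSMUSG00000026390, chromosome 1, 120474538 to 120505024), a class A receptor for bacteria and particles, had 0 counts in both libraries. A count of 0 allows up to 3 counts, which is 0.170 CPM in 2D and 0.222 in 3D, so no ratio was formed. Clec7a (ENSMUSG00000079293, chromosome 6, 129461591 to 129472779) had 16 and 11 counts, or 0.905 and 0.813 CPM, just under the level filter. Its ratio of 0.90 had an interval of 0.38 to 2.06, so these counts did not exclude a 2-fold difference either way. GENCODE M21 lists Clec7a as a polymorphic pseudogene, a class for genes that are intact in some strains and broken in others.

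The 3 TAM kinase genes were expressed at low levels in both libraries. Axl (ENSMUSG00000002602, chromosome 7, 25757273 to 25788705) had 91 counts in 2D and 89 in 3D, or 5.15 and 6.58 CPM. Mertk (ENSMUSG00000014361, chromosome 2, 128698956 to 128802894), the receptor by which resting macrophages clear apoptotic cells, had 58 and 69 counts, or 3.28 and 5.10 CPM. Tyro3 (ENSMUSG00000027298, chromosome 2, 119797733 to 119818104) had 43 and 32 counts, or 2.43 and 2.36 CPM. The order Axl, Mertk, Tyro3 was the same in both libraries. Of the 3 ratios, 1.28 for Axl (0.94 to 1.73), 1.55 for Mertk (1.08 to 2.24) and 0.97 for Tyro3 (0.60 to 1.57), only the interval of Mertk lay above 1, and Mertk had a ratio of 1.03 under total counts. Summed, the 3 genes had 192 and 190 counts, a ratio of 1.29 (1.05 to 1.59) under TMM and 0.85 under total counts. None of the 3 pairwise changes within the family had an interval that left out 1: Mertk per Axl differed 1.22-fold (0.75 to 1.97), Mertk per Tyro3 1.59-fold (0.86 to 2.96) and Axl per Tyro3 1.31-fold (0.74 to 2.35).

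Per 1000 bases of transcript the order of the 10 genes was the same in both libraries: Lrp1, Scarb1, Msr1, Cd36, Axl, Mertk, Tyro3, Stab1, Clec7a and Marco. In the 2D library the level ran from 73.3 CPM per kb for Lrp1 through 45.5 for Scarb1 and 37.4 for Msr1 to 5.06 for Cd36, 1.21 for Axl and 0.397 for Clec7a. In the 3D library the same genes stood at 109, 101, 24.2, 5.02, 1.54 and 0.357 CPM per kb. Neighbours at the lower end could not be separated: Tyro3 (0.395 to 0.734 in 2D), Stab1 (0.373 to 0.609) and Clec7a (0.227 to 0.645) had overlapping intervals in both libraries, as did Axl and Mertk. When the level was taken per 1000 bases of all annotated exons instead, Msr1 stood above Scarb1 in 2D, at 21.4 against 13.5 CPM per kb, because the annotated exons of Scarb1 add up to 8500 bases and its longest coding transcript has 2521.

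The ratio of a gene in these libraries ran along the GC content of its transcript, and the receptor genes differ widely in that property. The median log2 ratio of protein-coding genes was -1.34 in the bin of lowest GC content (32.7% to 41.8%) and 0.99 in the highest (58.1% to 71.3%). Msr1 and Cd36, both at 38.4%, fall in the lowest bin, and their log2 ratios of -0.63 and -0.01 were higher than its median. Scarb1 (56.2%), Stab1 (57.3%) and Lrp1 (57.9%) share the ninth bin, whose median was 0.80; Scarb1 at 1.15 lay above it, Lrp1 at 0.57 and Stab1 at -0.12 below it. Mertk (48.1%) at 0.64 lay above the -0.28 of its bin, while Axl (54.2%) at 0.35 and Tyro3 (55.4%) at -0.04 lay below the 0.66 of theirs.

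**Figure D2:**
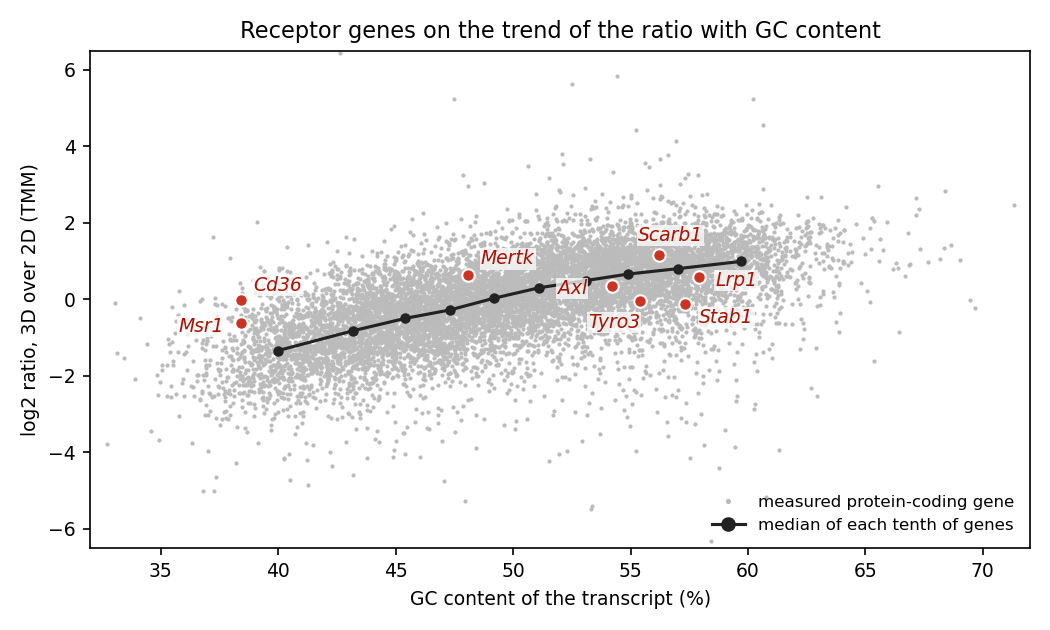
Each grey point is a measured protein-coding gene, with the GC content of its transcript in percent on the x axis and the log2 ratio of the 3D over the 2D library on the y axis; black points are medians of 10 bins and red points the 8 measured receptor genes. Cd36, Msr1, Mertk and Scarb1 lie above the line of medians, and Lrp1, Stab1, Tyro3 and Axl below it.

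Adjusting the log2 ratio for GC content, exon length and level over all measured genes changed which receptor genes stood out. After it, Cd36 (adjusted log2 ratio 1.49) and Mertk (1.41) were at least 2-fold higher, where 9.6% of all measured genes were, and none was at least 2-fold lower, against 9.22%. Scarb1 stood at 0.35, or at 0.01 when the length of the coding transcript replaced exon length, and no longer passed 2-fold. Msr1 turned from -0.63 to 0.60 and Lrp1 from 0.57 to -0.54. Axl (0.45), Tyro3 (0.33) and Stab1 (0.18) kept within 2-fold. The median of the 8 genes was 0.40 after adjustment and that of all measured genes 0.04. The 3.42-fold shift from Msr1 to Scarb1 thus separates genes that differ by 17.8 percentage points in GC content, and after adjustment Msr1 stood 0.25 log2 units above Scarb1 instead of below it. The shift from Msr1 to Cd36 is between genes of equal GC content, with log2 ratios of -0.63 and -0.01 before adjustment. After it, the gap was wider, with Cd36 0.89 log2 units above Msr1. The adjustment also covers level and exon length, which is 6344 bases for Msr1 and 3590 for Cd36. How much of any ratio comes from transcript composition was not tested.

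**Figure D3:**
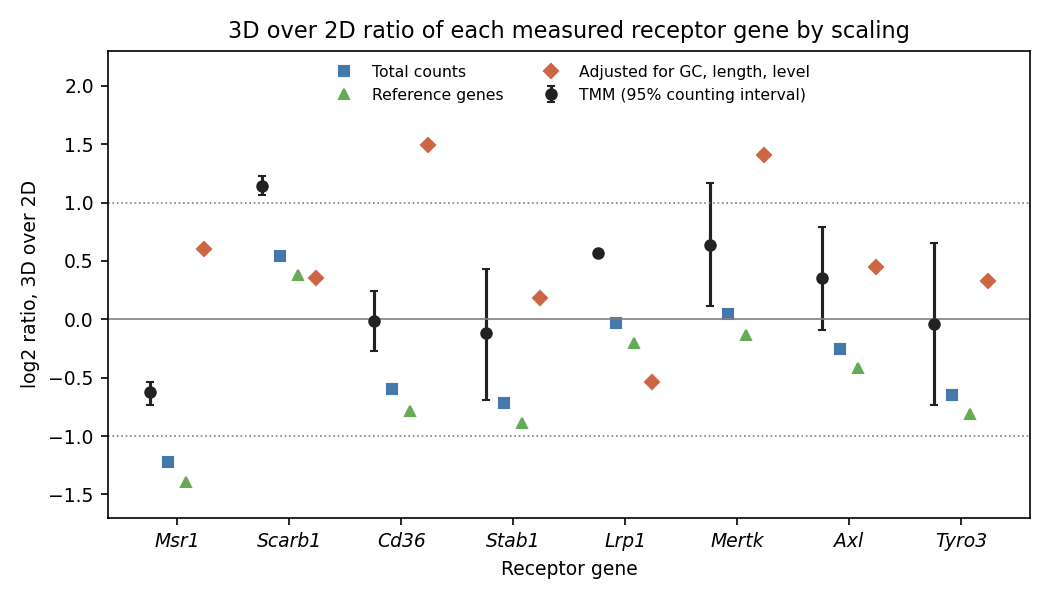
Log2 ratio of the 3D over the 2D library for the 8 measured receptor genes under 3 scalings and after adjustment for GC content, length and level; bars on the TMM points are 95% counting intervals and dotted lines mark 2-fold. Of the values shown, Scarb1 passes 2-fold higher under TMM alone, Msr1 passes 2-fold lower under total counts and reference genes, and Cd36 and Mertk pass after adjustment.

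The genes that work with these receptors were described from 8 lists with 109 different genes, of which 80 were measured. At the 2-fold rule 23 (28.8%) were higher in 3D and 10 (12.5%) lower, against 18.7% and 20.8% of all measured genes. Under total counts the numbers were 7 higher (8.75%) and 18 lower (22.5%), against 5.59% and 36.5% of all measured genes. After adjustment they were 9 higher (11.2%) and 4 lower (5.0%), against 9.6% and 9.22%, and the median log2 ratio was 0.05, close to the 0.04 of all measured genes. The lists below are given under TMM scaling. The adjusted log2 ratio is added for each gene named as at least 2-fold different, whether or not that difference was kept, and for some others.

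Among other scavenger receptors and relatives of LRP1, 12 of 21 genes were measured, with 4 higher, 3 lower and a median log2 ratio of 0.70 (2 higher and 4 lower under total counts). Cd68, the gene of macrosialin, stood at 864 CPM in 2D and 2817 in 3D, a 3.26-fold difference (3.20 to 3.32; adjusted -0.12). Lrpap1, the chaperone that keeps ligands off LRP1 during its folding, stood at 137 and 304 CPM, 2.22-fold higher (2.11 to 2.33; adjusted 0.29). Cd5l, which encodes a secreted scavenger protein of tissue macrophages including those of liver, had 10 and 69 counts, a 9.02-fold difference (4.62 to 19.64; adjusted 3.39), in the library with the higher hepatocyte markers, whose part in it was not tested. The 3 lower genes were Lrp8 (2.17-fold, adjusted -0.69), Lrp6 (2.62-fold, adjusted -0.67) and Megf10 (32 and 7 counts, 3.5-fold, adjusted -0.38). The collectin receptor gene Colec12 stood at 352 and 580 CPM (1.65-fold higher; adjusted 1.11). Cd163, Olr1, Vldlr and 6 others were under the filter.

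Of the C-type lectins and other phagocytic receptors, 15 of 20 were measured, with 6 higher, 1 lower and a median of 0.63. Under total counts 1 was higher and 4 lower, where 5.59% of all measured genes were higher and 36.5% lower. The lipid and apoptotic cell receptor gene Trem2 stood at 220 and 671 CPM, 3.05-fold higher (2.94 to 3.17; adjusted 0.30), its adaptor Tyrobp at 142 and 324 CPM, 2.28-fold (adjusted -0.52), and the beta-2 integrin gene Itgb2 at 223 and 595 CPM, 2.66-fold (adjusted 0.25). The others that were higher were the C-type lectin gene Clec4d (2.60-fold), Cd300a (2.45-fold) and Adgrb1 (14 and 28 counts, 2.61-fold), which kept at least 2-fold after adjustment at 1.82, 1.03 and 1.62. After adjustment Clec4e (1.45; 22.5 and 23.6 CPM) and Clec4a2 (2.41; 26 and 20 counts) also passed 2-fold, with ratios of 1.05 and 1.01 before it. Cd300lf, a receptor for phosphatidylserine and ceramide, was lower, with 29.2 and 11.2 CPM (2.60-fold, 2.16 to 3.13; adjusted -1.33). The beta-3 integrin gene Itgb3 stood at 246 and 379 CPM (ratio 1.54). The mannose receptor gene Mrc1 had 0 and 2 counts and Timd4 had 0 in both.

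The TAM ligand genes differed in level. Gas6, named for its role outside the naming rule, had 1613 and 1384 counts, at 35.8 CPM per kb in 2D and 40.1 in 3D. Axl, the most abundant of the kinases, stood at 1.21 and 1.54. The Gas6 ratio was 1.12 under TMM (adjusted log2 ratio -0.97) and 0.74 under total counts. The protein S gene Pros1 had 7 and 0 counts, fewer than any of the 3 kinase genes. Of 7 measured genes among the 12 bridging ligands and sheddases, 3 were higher: Mfge8, the bridge from phosphatidylserine to integrins, at 274 and 823 CPM (3.01-fold, adjusted 0.21), the calreticulin gene Calr at 1588 and 4051 CPM (2.55-fold, adjusted 0.04) and the annexin gene Anxa5 at 635 and 1881 CPM (2.96-fold, adjusted 0.16). The 2 lower genes both encode membrane proteases: Adam10 at 291 and 114 CPM (2.56-fold lower, 2.41 to 2.71; adjusted -0.86) and Adam17, which sheds MERTK, at 213 and 102 CPM (2.09-fold lower, 1.96 to 2.22; adjusted -0.74). The median of the list was 0.32, and under total counts 0 genes were higher and 2 lower. C1qa and C1qb had 0 counts in both libraries.

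Most of the engulfment machinery differed by less than 2-fold, with 2 of 16 measured genes higher, 2 lower and a median of 0.44 (1 higher and 3 lower under total counts). The small GTPase genes Rhog (75.3 and 277 CPM, 3.68-fold; adjusted 0.34) and Rac2 (412 and 990 CPM, 2.40-fold; adjusted 0.02) were higher. The adaptor gene Crk was lower (98.8 and 45.7 CPM, 2.16-fold; adjusted -0.59), as was the cholesterol exporter gene Abca1, with 115 and 8 counts (11-fold lower, 5.40 to 26.09; adjusted -2.22). Dock2 and Rac1 had ratios of 1.80 and 1.83, and Cdc42 had 1.33. In the dectin-1 list all 10 genes were measured although Clec7a itself was not, with 3 higher, 1 lower and a median of 0.21 (1 higher and 2 lower under total counts). Syk (184 and 411 CPM, 2.23-fold; adjusted 0.42), Plcg2 (2.22-fold; adjusted 0.07) and the tetraspanin gene Cd37 (3.26-fold; adjusted 0.49) were higher, and the paracaspase gene Malt1 was lower (37.9 and 17.4 CPM, 2.17-fold; adjusted 0.07). Card9, the adaptor gene downstream of SYK, stood at 59.4 and 41.7 CPM, 1.42-fold lower, and was the 1 gene of this list past 2-fold after adjustment (-1.54). The exchange factor gene Vav1 had a ratio of 1.71.

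Partners of CD36 and lipid handling genes went both ways within 2-fold: none of 8 measured genes passed 2-fold, and the median log2 ratio was 0.00. Under total counts, Fabp4 and Fyn were at least 2-fold lower. The kinase gene Lyn stood at 153 and 151 CPM and the tetraspanin gene Cd9 at 331 in both. Their ratios under TMM were 0.99 (0.93 to 1.05) and 1.0 (0.96 to 1.04), beside the 0.99 of Cd36. After adjustment the log2 ratios parted, at 0.01 for Lyn, -0.45 for Cd9 and 1.49 for Cd36. The fatty acid binding protein genes parted under TMM. Fabp4 stood at 152 and 88.8 CPM (ratio 0.58, 0.55 to 0.63; adjusted 0.05) and Fabp5 at 287 and 390 CPM (ratio 1.36, 1.31 to 1.41; adjusted 0.24). Under total counts both ratios were below 1, at 0.39 and 0.9. Soat1, which makes cholesteryl ester for storage, had a ratio of 1.42 (1.37 to 1.47), and the kinase gene Fyn, with 96 and 43 counts, one of 0.59 (0.40 to 0.85).

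Transcription factor genes known to act on the receptors had the highest list median, 1.14, with 5 of 9 measured genes higher and none lower (2 and 0 under total counts). Spi1, the gene of PU.1, stood at 130 and 433 CPM, 3.33-fold higher (3.17 to 3.49; adjusted 0.23). The liver X receptor genes Nr1h3 and Nr1h2, whose products induce Mertk and Abca1 in macrophages, were 3.33-fold (5.88 and 19.6 CPM; adjusted 1.08) and 2.62-fold higher (adjusted 0.13), and Rxrb (2.20-fold; adjusted -0.17) and Srebf2 (2.20-fold; adjusted -0.03) were higher too. The list median after adjustment was -0.03. Pparg, which drives Cd36 in macrophages, had 1 count in 2D and 0 in 3D, and Ppara and Maf had 0 in both. Nfe2l2, whose product also acts on Cd36, stood at 142 and 125 CPM (ratio 0.88), and Srebf1 had a ratio of 1.51. Of 4 measured negative regulators (median log2 ratio 0.62), Lilrb4a was 12.52-fold lower in 3D (301 and 24.02 CPM, 11.19 to 14.05; adjusted -3.33), with counts that a close paralog makes uncertain. Sirpa, the receptor for the signal that spares healthy cells, had a ratio of 1.51 (adjusted -0.47). Its ligand gene Cd47 had one of 1.55 (adjusted 1.37) and Socs3 one of 1.93 (adjusted 0.19). Under total counts the ratios of Sirpa and Cd47 were 1.0 and 1.03, with 0 genes of the list higher and 1 lower.

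**Figure D4:**
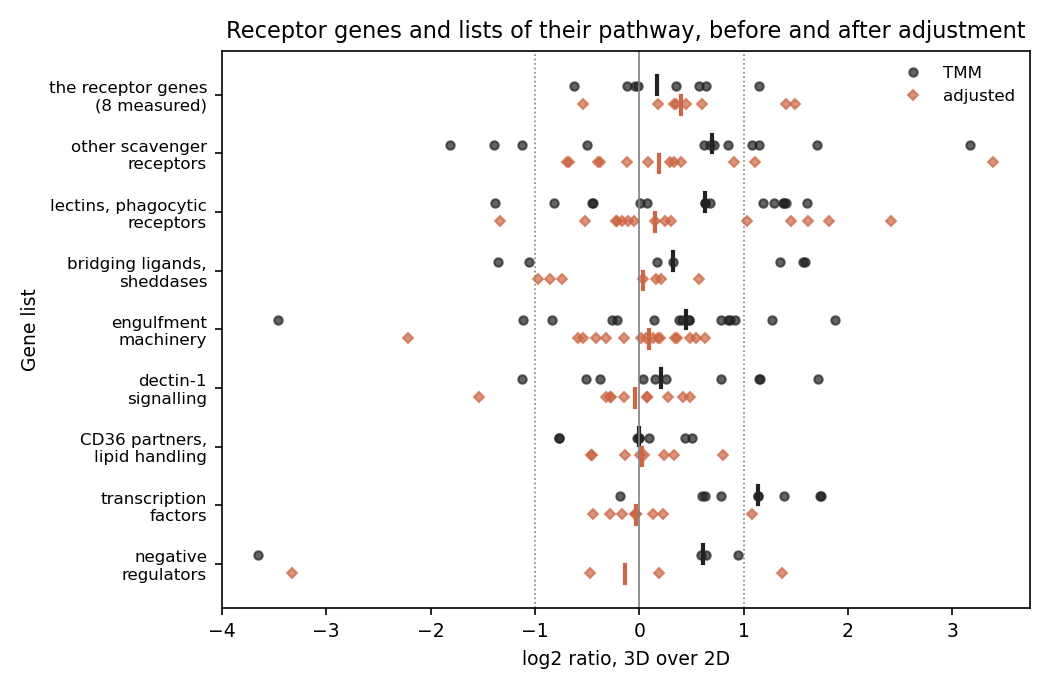
Log2 ratio of the 3D over the 2D library for the 8 measured receptor genes and for measured genes of the 8 lists, with TMM values as black points, adjusted values as orange diamonds and short bars at each list's median. Before adjustment the list medians run from 0.00 to 1.14, and after it from -0.14 to 0.19, with the receptor genes at 0.40.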

How the data were processed

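The authors deposited whole-number counts of reads per Ensembl gene, 1 file per library, made with Trimmomatic, HISAT2 and HTSeq on mm10, per the submitters' processing notes. Per the labels' protocols, TRIzol RNA went into an Illumina TruSeq stranded mRNA kit. The sources used here do not give versions, annotation release, strand option or the handling of reads that match several genes, so counts of overlapping genes and close paralogs are uncertain. Of 52550 identifiers 99.7% matched GENCODE M21 (GRCm38), the source of symbols, positions, lengths and GC content.

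TMM factors came from edgeR 4.0.16 (R 4.3.3) and size factors from DESeq2 1.42.0 as an alternative. The ratio is CPM in 3D over 2D with a Clopper-Pearson interval conditional on the summed counts; the change of a pair of genes is a conditional odds ratio with its exact interval; intervals on levels are Poisson. A 0 was set to a floor of 3 counts, and a 2-fold ratio was called. GC content and transcript length are those of the longest coding transcript. The adjustment regressed the log2 ratio on natural cubic splines of 4 degrees of freedom for GC content, exon length and mean CPM (patsy 1.0.2, numpy 2.4.6), and it also removes any biological difference along these properties. Reference scaling set the median log2 ratio of 16 reference genes to 0. The ratios, intervals and 2-fold calls under TMM were tested on simulated Poisson counts that had no trend with GC content. That test did not cover the adjustment or the other scalings. Promoter sequences are RefSeq's.

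All 10 receptor genes are named; of each list, the 4 measured genes of highest mean CPM and those of highest and lowest ratio are named, and small counts are completed with further genes chosen after their values were seen. A gene that the rule names is not reported here. Members and lists were chosen with earlier results of these data known.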

Additional observations from a re-analysis of the deposited data

How the results depend on the processing

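With DESeq2 size factors, upper-quartile factors, a mean of at least 5 CPM, no filter or a pseudocount of 1 CPM, the ratio of each receptor gene that was measured stayed within its counting interval; thinning to 0.5 of the smaller total moved Lrp1 alone, to 1.42. Over all 77 comparisons of a gene with a setting, 51 stayed within the interval and 26 did not. Total counts gave ratios of 0.43 for Msr1, 1.46 for Scarb1, 0.66 for Cd36, 1.03 for Mertk, 0.84 for Axl, 0.61 for Stab1 and 0.98 for Lrp1. Reference genes gave 0.38 for Msr1, 1.30 for Scarb1, 0.58 for Cd36, 0.91 for Mertk, 0.75 for Axl, 0.57 for Tyro3, 0.54 for Stab1 and 0.87 for Lrp1. Adjustment for GC content, exon length and level gave 1.51 for Msr1, 1.27 for Scarb1, 2.81 for Cd36, 2.65 for Mertk and 0.69 for Lrp1; with transcript length, a setting chosen after seeing the data, the values were 1.43, 1.0, 3.02, 2.88 and 0.79. Receptor genes at least 2-fold higher numbered 1, and 0 under total counts, 0 under reference genes, 2 and 2 under the adjustments, 2 at a 1.5-fold threshold and 0 at 4-fold. Those lower numbered 0, and 1 under total counts, 1 under reference genes and 1 at 1.5-fold. Pathway genes higher numbered 23, and 7 under total counts, 2 under reference genes, 9 and 9 under the adjustments, 40 at 1.5-fold and 1 at 4-fold. Pathway genes lower numbered 10, and 18, 20, 4 and 4 in the same order of settings, 2 at 4-fold and 5 where the interval bound had to pass 2-fold. All measured genes higher numbered 2181, and 657 under total counts, 447 under reference genes, 1120 and 1139 under the adjustments, 3701 at 1.5-fold and 260 at 4-fold. Those lower numbered 2426, and 4292, 4792, 1076 and 1071 in the same order. They numbered 3939 with no filter, 3552 at 1.5-fold, 779 at 4-fold and 1680 where the interval bound had to pass 2-fold. Total counts and reference genes move every log2 ratio by 1 constant, and total counts also changed the genes that passed the level filter, from 11673 to 11749; of the 11673, 4192 were at least 2-fold lower under total counts. For the adjustments the cause was not tested. No paired analysis was possible because each culture method has 1 library, and for the same reason no library could be left out in turn. Depth limits Clec7a, Tyro3, Stab1, Mertk and Axl, each with fewer than 100 counts per library.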
